A study of Pinus pinaster with 4 samples.

Results

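The 4 contigs described here are glutathione transferases of maritime pine (Pinus pinaster) whose transcripts were counted by RNA-Seq in adult needles. They are sp_v3.0_unigene1599, sp_v3.0_unigene32843, sp_v3.0_unigene24786 and sp_v3.0_unigene21010, and they make up 4 of the 17571 contigs of the deposited table. Needles came from 2 plants of the Leiria provenance (libraries L6 and L7, from near the coast of Portugal) and 2 plants of the Tamrabta provenance (T3 and T6, from the Atlas mountains of Morocco). All 4 plants were rooted cuttings from a clonal collection, potted at 17 months of age, grown in 1 greenhouse in northern Spain with the same fertilised irrigation, and pruned before sampling so that new axillary shoots formed. No treatment that differed between the provenances is named, and the needles were taken at 1 time on 1 day. Each library was taken as 1 plant, since the study calls its replicates biological, but the labels do not state this. The sources do not say whether the plants of a provenance belonged to different clones, so the spread between them may be smaller than that of the provenance. The comparison of the provenances addresses whether plants from contrasting habitats differ in gene expression when grown together.

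The contigs were chosen by their descriptions in an array table of the study, of which the 1791 rows with the lowest p were held. The RNA of these same 4 plants was among the samples on those arrays, and the RNA-Seq difference between the provenances was already known when the contigs were listed. The differences given below are therefore descriptions, with no test, and they support no statement about the gene family. Among the 9 contigs with a glutathione transferase description in the held rows, 4 have an RNA-Seq row. The other 5, which include contigs described as tau, theta and zeta class enzymes, were not analysed here.

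Glutathione transferases are soluble enzymes that attach the tripeptide glutathione to reactive or foreign molecules, which can then be moved into the vacuole or broken down. Plants carry many of them, sorted into classes, and the tau class is the large plant-specific class known for induction by herbicides, drought, hormones and oxidative stress. Members of other classes can act as peroxidases, as carriers of flavonoids, or as enzymes that remove glutathione from a bound molecule. In conifer needles they belong to the defences against oxidants and toxic compounds.

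By description and best Arabidopsis match, 3 of the contigs fall together and 1 stands apart. The contig sp_v3.0_unigene1599 is described as a tau class enzyme known from pines, and its match AT1G10370 is the tau gene called GSTU17 or ERD9 in Arabidopsis, where it takes part in light signalling and in responses to drought and abscisic acid. Both sp_v3.0_unigene32843 and sp_v3.0_unigene24786 carry the same description, a spruce glutathione S-transferase, but different matches. The match of the first is AT1G78370, the Arabidopsis tau gene GSTU20, whose protein binds the jasmonate-conjugating enzyme FIN219/JAR1. The match of the second is AT1G78380, the neighbouring tau gene GSTU19, which is known in Arabidopsis for conjugating herbicides. The contig sp_v3.0_unigene21010 is described after a pea enzyme, and its match AT5G02790 is GSTL3 of the lambda class, whose members act in Arabidopsis on glutathione conjugates of flavonols rather than as typical conjugating enzymes. These roles come from Arabidopsis and were not measured here.

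Values are CPM, counts scaled to a library of 1000000, with TMM factors as a correction for library composition. They were whole multiples of the CPM of 1 count, so the counts behind them could be recovered. The libraries held 40019608 to 58835449 counts, and 1 count was worth 0.0171 to 0.0275 CPM. Contig lengths were not used, so levels are compared between libraries and not between contigs. Intervals are exact 95% Poisson intervals of a count. They cover counting error only and leave out the error of the library scaling. The logFC is the difference of log2(CPM + 0.5), Leiria minus Tamrabta, with the standard error that limma gives from a fit over all contigs. It understates the change of low contigs.

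As a check of the tissue, 4 contigs described as photosystem, light-harvesting or oxygen-evolving proteins had at least 89.0 CPM in every library. Their summed level was 6821 and 5100 CPM in the Leiria libraries and 3912 and 3003 CPM in the Tamrabta libraries, so it did not overlap. The held array rows gave 11 such descriptions, and only these 4 have an RNA-Seq row. Those array rows had the lowest p on RNA that included these plants. Contigs that differ between the provenances are thus frequent among them, and nothing is read from the direction. Descriptions of dividing cells, from the same preselected array rows, numbered 7, of which 4 have an RNA-Seq row (histone H1, alpha tubulin and a cyclin-dependent kinase). The sum of these 4 contigs was 284 and 397 CPM in Leiria against 160 and 322 CPM in Tamrabta, and they went both ways. The cyclin-dependent kinase was higher in both Leiria plants, at 9.13 and 6.58 CPM against 1.72 and 3.29 CPM. The alpha tubulin contig sp_v3.0_unigene3734 was higher in both Tamrabta plants, at 70.3 and 81.0 CPM against 44.1 and 46.4 CPM. The part of tissue composition in the differences below was not tested. In bulk needles, fewer cells of a type and less RNA per cell cannot be told apart. Strand and multiple mapping are not described for the counting, so contigs of similar sequence may have shared counts.

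Of the 3 contigs with a tau class match, the matches of GSTU17 and GSTU20 differed several-fold between the provenances, while the match of GSTU19 and the lambda class match hardly differed. The match of GSTU17, sp_v3.0_unigene1599, was at 21.5 CPM in L6 and 39.4 CPM in L7, whereas T3 reached 181 CPM and T6 reached 315 CPM. Both Tamrabta plants lay far above both Leiria plants, and the closest pair of plants still differed 4.59-fold. The Leiria mean was 30.4 ± 12.6 CPM (SD, n = 2), and the Tamrabta mean, at 248 ± 95.1 CPM (SD, n = 2), was 8.14-fold higher. The logFC of sp_v3.0_unigene1599 was -3.01 with a standard error of 0.42.

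For sp_v3.0_unigene32843, the match of GSTU20, the Leiria libraries L6 and L7 held 42.0 and 31.6 CPM, and the Tamrabta libraries T3 and T6 held 213 and 200.2 CPM. The provenances did not overlap here either, and the ratio of a Tamrabta to a Leiria plant ranged from 4.77 to 6.75. The Leiria mean was 36.8 ± 7.35 CPM (SD, n = 2), and the Tamrabta mean of 207 ± 9.03 CPM (SD, n = 2) was 5.62-fold higher. Its logFC was -2.49 with a standard error of 0.20, so the plants of a provenance were closer together than for sp_v3.0_unigene1599.

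**Figure D1:**
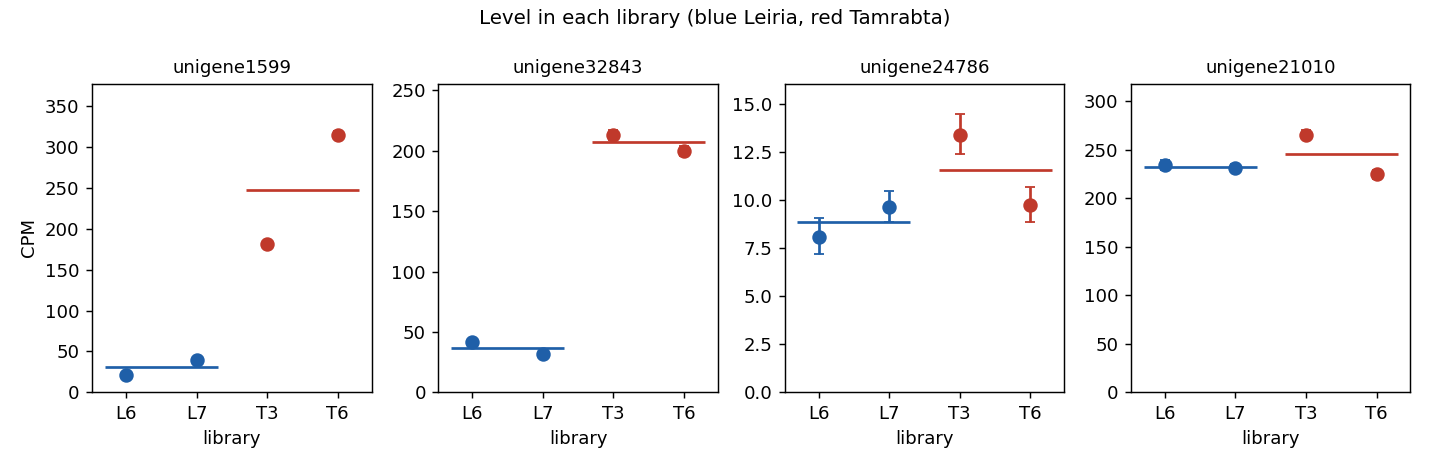
Level of each glutathione transferase contig in CPM (vertical axis, starting at 0 and scaled separately for each contig) in the 4 libraries, with points for libraries, error bars for the exact 95% Poisson interval and horizontal lines for the mean of each provenance. The matches of GSTU17 and GSTU20, unigene1599 and unigene32843, sit at 21.5 to 42.0 CPM in Leiria and at 181 to 315 CPM in Tamrabta, while unigene24786 and unigene21010 stay within 8.11 to 13.4 CPM and 225 to 265 CPM.

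The contig sp_v3.0_unigene24786, which shares its description with sp_v3.0_unigene32843, was lowest in L6 at 8.11 CPM, followed by L7 at 9.64 CPM, T6 at 9.78 CPM and T3 at 13.4 CPM. Only T3 stood clear of the others, since T6 exceeded L7 by a ratio of 1.01 and their counting intervals, 8.89 to 10.7 CPM and 8.86 to 10.5 CPM, overlapped almost fully. Leiria plants averaged 8.88 ± 1.08 CPM (SD, n = 2), and Tamrabta plants averaged 11.6 ± 2.58 CPM (SD, n = 2). The logFC of sp_v3.0_unigene24786 was -0.36 with a standard error of 0.23, and without T3 it was -0.14. The same description was thus attached to a contig with a several-fold difference and to one whose difference was close to the spread between plants.

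The lambda class match sp_v3.0_unigene21010 ranged from 225 CPM in T6 through 231 CPM in L7 and 234 CPM in L6 to 265 CPM in T3. The provenances overlapped, with the Leiria plants between T6 and T3. Leiria plants averaged 232 ± 2.22 CPM (SD, n = 2), and Tamrabta plants averaged 245 ± 28.7 CPM (SD, n = 2). Its logFC was -0.07 with a standard error of 0.17, and without T3 it was 0.05, so no direction is read from it.

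Counting error was small beside the differences of the GSTU17 and GSTU20 matches between the provenances. The half-width of the counting interval was 1.65 to 7.07% of the level for sp_v3.0_unigene1599 and 1.90 to 5.05% for sp_v3.0_unigene32843. It was 1.69 to 2.13% for sp_v3.0_unigene21010, which held 8514 to 13507 counts in a library. Its Tamrabta plants, with intervals of 261 to 270 CPM and 220 to 229 CPM, differed beyond counting error. On the TMM-scaled values its Leiria plants did not. For sp_v3.0_unigene24786, with 295 to 678 counts, the half-width was 7.60 to 11.6%, the widest of the 4 contigs.

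Set against the whole table, the matches of GSTU17 and GSTU20 lay near one end of the distribution. A logFC as low as that of sp_v3.0_unigene1599 or lower was found for 41 contigs, 0.233% of the table, counting the contig itself. For sp_v3.0_unigene32843 this number was 85, or 0.484%. The steady contigs lay in its middle, with a smaller absolute logFC for 61.2% of all contigs in the case of sp_v3.0_unigene24786 and for 15.2% in the case of sp_v3.0_unigene21010. The median logFC of all contigs was 0.01. The contigs were listed with this contrast known, so their places in the distribution are descriptions and no support.

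**Figure D2:**
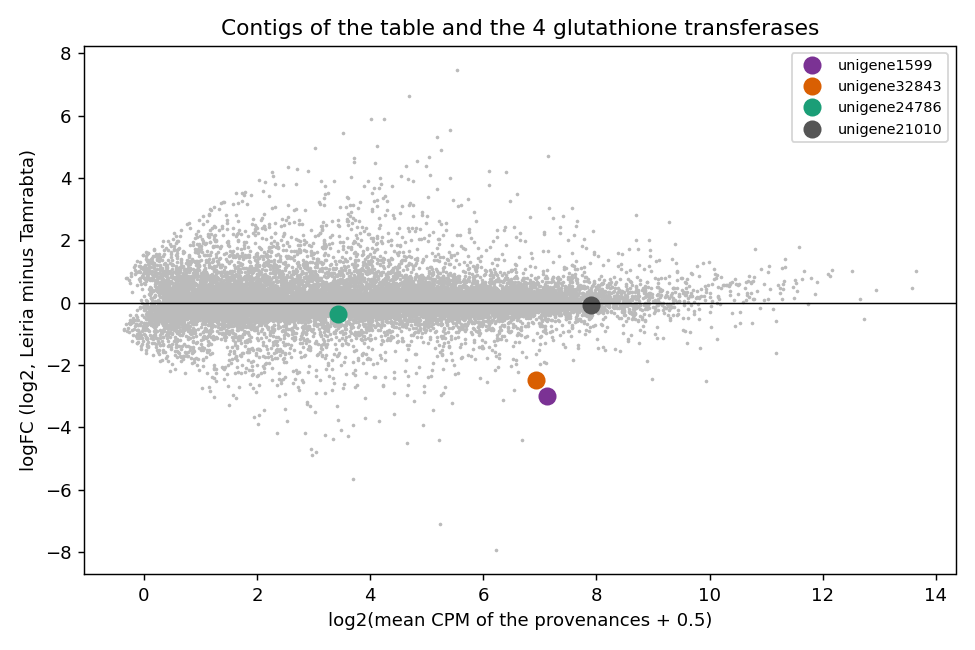
The logFC (log2, Leiria minus Tamrabta, vertical axis) of the contigs in the table against their mean level, as log2 of the mean CPM of the provenances plus 0.5 (horizontal axis). Grey points are contigs and coloured points the glutathione transferases, with unigene1599 at -3.01 and unigene32843 at -2.49, below the bulk of the contigs, and unigene24786 at -0.36 and unigene21010 at -0.07 within it.

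On the TMM-scaled values, both Tamrabta plants were above both Leiria plants for 3 of the 4 contigs, beside 23.9% of all contigs. An absolute logFC over 1 was reached by 2 of the 4, beside 11.2% of all contigs. Adding to this an adjusted p under 0.05, limma called 0 of the 4 and 0.154% of all contigs, and 2 of the 4 had an unadjusted p under 0.05, beside 14.7% of all contigs. On the recovered counts, the exact test of edgeR called 2 of the 4 and 5.99% of all contigs. Its quasi-likelihood test called 0 of them and 0.0114% of all contigs, and DESeq2 called 2 of them and 6.19% of all contigs. The calls of the exact test and DESeq2 were sp_v3.0_unigene1599 and sp_v3.0_unigene32843. Since these contigs were selected on this contrast, nothing is read from these counts.

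On the TMM-scaled values, plants of the same provenance differed in opposite directions for the matches of GSTU17 and GSTU20. In Leiria, sp_v3.0_unigene1599 was 1.83 times higher in L7 than in L6, while sp_v3.0_unigene32843 was 1.33 times higher in L6 than in L7. In Tamrabta, sp_v3.0_unigene1599 was 1.74 times higher in T6, while sp_v3.0_unigene32843 was 1.06 times higher in T3. These gaps exceeded counting error, as the intervals of the plants compared did not overlap, down to 209 to 217 CPM in T3 against 196 to 204 CPM in T6 for sp_v3.0_unigene32843. The log2 ratio of sp_v3.0_unigene1599 to sp_v3.0_unigene32843, in which contig length cancels between libraries, was -0.96 in L6 and 0.32 in L7, and among the Tamrabta plants -0.24 in T3 and 0.65 in T6. It overlapped between the provenances, with means of -0.32 in Leiria and 0.21 in Tamrabta and a range of 1.62 from L6 to T6.

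The provenances were apart by more than 1 unit on the log2 scale for the pairs that join the matches of GSTU17 or GSTU20 to a steady contig. The log2 ratio of sp_v3.0_unigene32843 to sp_v3.0_unigene24786, the contigs that share a description, was lower in the Leiria libraries, at 2.37 for L6 and 1.71 for L7, than in T3 with 3.99 and T6 with 4.35. The ratio of sp_v3.0_unigene1599 to the lambda class match sp_v3.0_unigene21010 was -3.44 and -2.55 in Leiria against -0.55 and 0.49 in Tamrabta, the widest range of any pair at 3.93. The steady contigs sp_v3.0_unigene24786 and sp_v3.0_unigene21010 had a range of 0.55, the narrowest of the 6 pairs, and their log2 ratio was -4.58 in L7 and -4.52 in T6, a gap within the counting intervals of sp_v3.0_unigene24786.

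The gap between plants of a provenance was read against contigs whose mean CPM was within a factor of 2. For sp_v3.0_unigene1599 the gap between L6 and L7 was wider than in 96.9% of 2524 such contigs and the gap between T3 and T6 wider than in 89.6%. These shares were the highest of the 4 contigs in both provenances. No plant had replicate libraries, so plant and library preparation cannot be told apart in these gaps. For sp_v3.0_unigene32843 the Leiria gap was wider than in 85.0% of 2768 contigs, but the Tamrabta gap wider than in only 17.4%. For sp_v3.0_unigene24786 these shares were 54.1% and 62.0% of 4115 contigs. For sp_v3.0_unigene21010 the Leiria plants were nearly equal on the TMM-scaled values. Its gap was wider than in 6.58% of 1459 contigs in Leiria and in 39.1% in Tamrabta. The CPM of all contigs summed to 1100081 in L6 and 1005781 in L7, so this near equality depends on the scaling. The Tamrabta plants differed more than the Leiria plants in general, with median gaps on the log2 scale of 0.28 and 0.16 among the contigs at the level of sp_v3.0_unigene1599.

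The contigs with the most similar profiles were sought among 839 contigs with a mean of at least 1 CPM and a description, by the root mean square (RMS) difference of the centred log2 values over the 4 libraries. These contigs come from the same held array rows, so large differences are frequent among them. With only 4 libraries, a likeness is a description and says nothing of shared function or control. Nearest to sp_v3.0_unigene1599 were an O-methyltransferase (sp_v3.0_unigene105542, RMS 0.24), a putative UDP-glucosyltransferase (sp_v3.0_unigene7174, RMS 0.29) and a terminal flower-like protein (sp_v3.0_unigene22311, RMS 0.30). Of all contigs with a mean of at least 1 CPM, described or not, 5, 9 and 10 were nearer than these. O-methyltransferases add methyl groups and UDP-glucosyltransferases add glucose to small molecules, phenolic compounds among them. All 3 shared the order of the plants seen for sp_v3.0_unigene1599, lowest in L6 and highest in T6, which largely follows from choosing them by profile. The L6 value of the terminal flower-like protein, 0.055 CPM, lay under the 0.0825 CPM of 3 counts. The O-methyltransferase went from 1.24 and 4.10 CPM in the Leiria plants L6 and L7 to 13.7 and 24.9 CPM in the Tamrabta plants T3 and T6.

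Nearest to sp_v3.0_unigene32843 was a putative cinnamoyl CoA reductase (sp_v3.0_unigene23552, RMS 0.13), an enzyme at the entry to lignin building blocks. Its level was 47.9 CPM for L6 and 30.9 CPM for L7, with T3 at 258 CPM and T6 at 196 CPM. Of all contigs, 0 were nearer than this reductase. The next were a contig described by an S-adenosylmethionine decarboxylase leader (sp_v3.0_unigene139733, RMS 0.17), a name from polyamine synthesis, and an esterase (sp_v3.0_unigene143836, RMS 0.20), with 3 and 5 contigs nearer.

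For the steady contigs the distances were smaller. Nearest to sp_v3.0_unigene24786 was 3-phosphoshikimate 1-carboxyvinyltransferase (sp_v3.0_unigene34176, RMS 0.02), an enzyme of the shikimate pathway that leads to aromatic amino acids. It had 553, 655, 921 and 666 CPM in L6, L7, T3 and T6. A DNA binding transcription factor (sp_v3.0_unigene5849) and a DUF221 domain protein (sp_v3.0_unigene7415) followed, with RMS differences of 0.05 and 0.06. Nearer than these 3 were 0, 24 and 29 contigs of the table. Nearest to sp_v3.0_unigene21010 were a TRAPPC10 domain protein (sp_v3.0_unigene4935, RMS 0.01), a BSD domain protein (sp_v3.0_unigene6868, RMS 0.02) and a helicase domain protein (sp_v3.0_unigene166666, RMS 0.03), with 3, 10 and 60 contigs nearer.

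**Figure D3:**
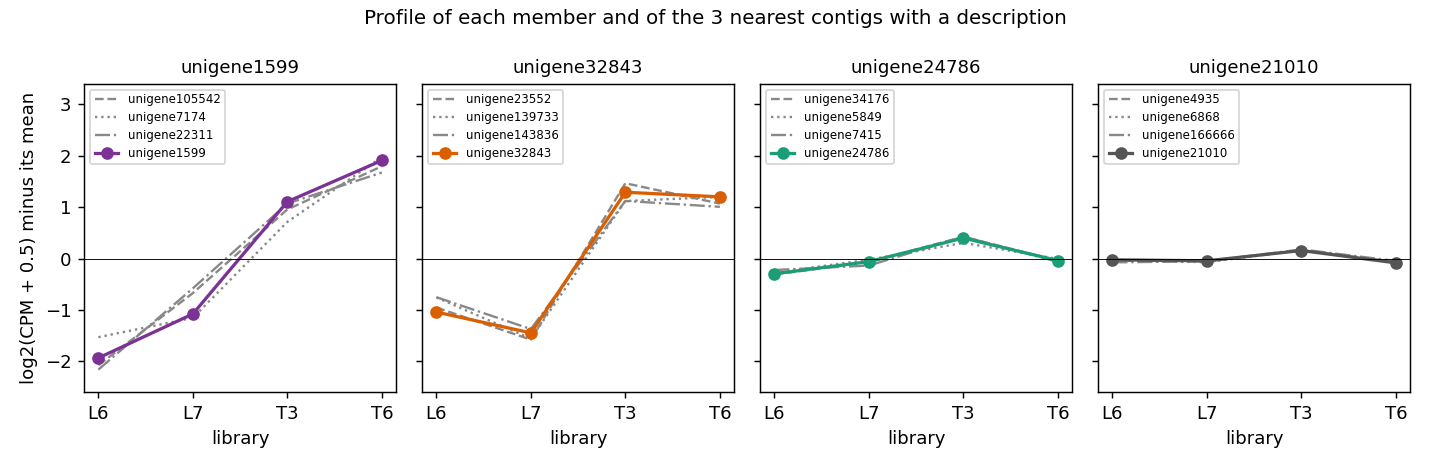
Centred profiles on the log2(CPM + 0.5) scale (vertical axis) over the 4 libraries (horizontal axis) for each glutathione transferase, as coloured points joined by a line, and for the 3 described contigs nearest to it, as grey lines. The neighbours of unigene1599 run from the lowest value in L6 to the highest in T6, those of unigene32843 have their lowest value in L7, and those of unigene24786 and unigene21010 stay near 0 with T3 highest.

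Other glutathione and redox enzymes in the held array rows gave 18 descriptions, of which 8 had an RNA-Seq row. They include thioredoxins, which reduce disulfides in other proteins, glutaredoxins, which do so with glutathione or carry iron-sulfur clusters, a peroxiredoxin, which reduces peroxides, and S-formylglutathione hydrolase, which works in formaldehyde detoxification. Limma called 0 of the 8 in either direction, beside 27 of 17571 contigs in the table. An unadjusted p under 0.05 from limma was reached by 0 of the 8, beside 14.7% of all contigs. The exact test, the quasi-likelihood test and DESeq2 called 0 of the 8, beside 5.99%, 0.0114% and 6.19% of all contigs. With 8 contigs, counts of 0 are not far from these shares, so nothing is read from them. The logFC of the 8 was positive for 5 and negative for 3, with a median of 0.45 beside 0.01 over all contigs. A putative thioredoxin (sp_v3.0_unigene20361) had its highest level in L6 at 512 CPM, then L7 at 301 CPM, T3 at 266 CPM and T6 at 186 CPM, with a logFC of 0.82 and a standard error of 0.34, for which limma gave an adjusted p of 0.38. A thioredoxin fold protein (sp_v3.0_unigene18125) overlapped between the provenances and reached 0.68 with a standard error of 0.49, for which limma gave an adjusted p of 0.583. Toward Tamrabta the lowest values were those of the thioredoxin-like HCF164 (sp_v3.0_unigene8412), at -0.17, and the monothiol glutaredoxin S15 (sp_v3.0_unigene2510), at -0.16, with adjusted p of 0.755 and 0.688 from limma. None of the 8 had an absolute logFC over 1, which 11.2% of all contigs had. Of these 8, 4 were higher in both Leiria plants, beside 25.1% of all contigs, and 1, the glutaredoxin S15, was higher in both Tamrabta plants, beside 23.9%. All 4 photosystem and related contigs above were higher in both Leiria plants, and the part of tissue composition in this was not tested.

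Descriptions naming cytochromes P450, or ABC, multidrug or MATE proteins, numbered 24, with 11 RNA-Seq rows. Some cytochromes P450 oxidise compounds before conjugation, and some ABC and MATE proteins move conjugates and other metabolites across membranes. The contigs were listed by key words, and whether they have these roles was not tested. Limma called 0 of the 11, beside 0.154% of all contigs. An unadjusted p under 0.05 from limma was reached by 3, all of them higher in Tamrabta, beside 14.7% of all contigs in either direction. The exact test and DESeq2 called 2 each, beside 5.99% and 6.19% of all contigs, and the quasi-likelihood test called 0, beside 0.0114%. The logFC was negative for 7 and positive for 4, with a median of -0.40. A MATE efflux domain protein (sp_v3.0_unigene18734) had 171 and 165 CPM in L6 and L7 but 433 and 510 CPM in T3 and T6, so the provenances did not overlap. Its logFC was -1.48 with a standard error of 0.17, and the adjusted p was 0.0943 by limma and 0.000155 by the exact test of edgeR. It and a second MATE efflux protein (sp_v3.0_unigene13039, named after its values were seen) were the contigs called by the exact test. For the second, the Tamrabta plants were apart at 74.6 and 141 CPM, and limma gave a logFC of -1.17 with an adjusted p of 0.27.

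A fragment described as the cytochrome P450 CYP701A16 (sp_v3.0_unigene3981), a family known for gibberellin synthesis, had 3.19 and 7.33 CPM in L6 and L7 and 7.69 and 21.5 CPM in T3 and T6. The plants within each provenance differed widely, and the logFC of -1.32 had an adjusted p of 0.427 by limma. In the other direction a putative cytochrome P450 (sp_v3.0_unigene6711) had a logFC of 0.46 and a subfamily I ATP-binding cassette protein (sp_v3.0_unigene9339) one of 0.37, with adjusted p of 0.419 and 0.381 from limma. These contigs were preselected by their array p on RNA that included these plants, so neither list describes its gene class as a whole.

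The difference between the provenances kept its size under the other settings for the matches of GSTU17 and GSTU20. The 14 alternatives changed the pseudocount, filter, scaling or test, or left out a library. Under them the logFC took values from -3.44 to -2.58 for sp_v3.0_unigene1599 and from -2.69 to -2.29 for sp_v3.0_unigene32843. The bounds came from fits with 1 library left out. For sp_v3.0_unigene24786 the range was -0.58 to -0.14, and for sp_v3.0_unigene21010 it was -0.22 to 0.05. The ranges of the steady contigs were separated from the others by more than 1 unit on the log2 scale. Steady and differing contigs were told apart on these same values, so this separation was built in and is no added support.

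**Figure D4:**
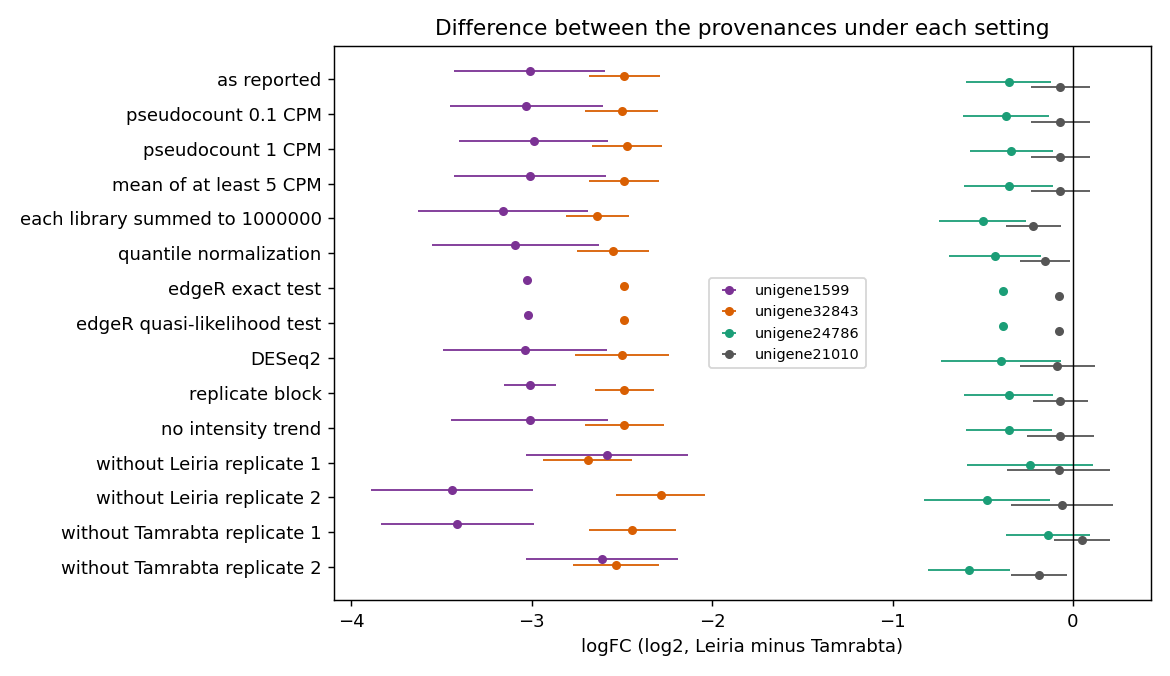
The logFC (log2, Leiria minus Tamrabta, horizontal axis) of each glutathione transferase under each setting (vertical axis), with bars for 1 standard error where the tool gives one. Leiria replicates 1 and 2 are L6 and L7, and Tamrabta replicates 1 and 2 are T3 and T6. The points of unigene1599 lie between -3.44 and -2.58 and those of unigene32843 between -2.69 and -2.29, while those of unigene24786 lie between -0.58 and -0.14 and those of unigene21010 between -0.22 and 0.05.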

How the data were processed

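Needle RNA of 4 plants was sequenced as paired-end TruSeq libraries. After trimming in SeqTrimNext, the authors aligned read pairs to SustainPineDB contigs using Bowtie2, keeping concordant pairs. They took counts with a script of their bioinformatics platform and deposited a signal per contig, the CPM that edgeR computes with TMM factors. For these tools no versions were given. Columns were matched to samples by the initial of the provenance and the number in the sample title. Counts were recovered from the CPM step of each library, and 100% of 70284 values were whole within 0.01 counts. L6 totalled 40019608 counts and L7 58835449, while T3 totalled 49935290 and T6 40807468. Contig lengths, sequences and a genome were not used.

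On log2(CPM + 0.5), limma 3.58.1 (R 4.3.3) was fitted to all contigs, the prior variance following the mean level, and p-values were adjusted by Benjamini-Hochberg over 17571 contigs. A call needed both an absolute logFC over 1 and an adjusted p under 0.05. Because the unit is normalized, count tests (edgeR 4.0.16, DESeq2 1.42.0) were alternatives. The members and lists were chosen with earlier results of these data known. Lists were taken by key words from the array table, within 120 characters of the start of a description. Named contigs were the members, the 3 described contigs nearest to each, and in both other lists every limma call and the 2 largest logFC in each direction, all with a mean of at least 1 CPM outside the members. The tests were also run on simulated counts, with dispersions estimated from these libraries and a fixed size of change. That setting differs from the data, so no accuracy of the tests on these data is read from it. The labels give numbered replicates, and each was taken as 1 plant and as a separate sample. The counts of a provenance were not 1 library deposited again (chi-square over its degrees of freedom, 85.4 in Leiria and 184 in Tamrabta).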

Additional observations from a re-analysis of the deposited data

How the results depend on the processing

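With 2 plants in each provenance, an estimate of spread rests on single pairs of plants. The calls over all contigs depended on the test and the filter, at 27 with limma, 17 with a pseudocount of 1 CPM, 5 with a mean of at least 5 CPM, 1053 with the edgeR exact test, 2 with the quasi-likelihood test and 1088 with DESeq2. With 1 library left out they ranged from 0 to 32, with 0 when L6, L7 or T3 was missing, where limma gave 1311, 1484 and 3505 contigs an unadjusted p under 0.05. The lone library of a provenance is then assumed to vary like the others. Libraries that share a replicate number in the labels (L6 with T3, L7 with T6) are not stated to be paired. The block on that replicate number gave 9 calls, 6 of them among the 27. The deviations from the provenance mean correlated at 0.211 between L6 and T3. With 2 libraries in a provenance the deviations mirror each other, so L7 and T6 gave the same value. Pairing L6 with T6 instead would turn the sign of this correlation, so no pairing is read from it. Each library summed to 1000000 moved the median logFC of all contigs from 0.01 to -0.13 and that of sp_v3.0_unigene21010 to -0.22, a shift of about the same size. Among the cytochrome P450, ABC and MATE contigs, the exact test and DESeq2 called 2 and limma 0. With 1 library left out, the logFC ranged from -3.44 to -2.58 for sp_v3.0_unigene1599, from -2.69 to -2.29 for sp_v3.0_unigene32843, from -0.58 to -0.14 for sp_v3.0_unigene24786 and from -0.19 to 0.05 for sp_v3.0_unigene21010, whose sign turned without T3. Libraries were left out of the lists' counts as an alternative chosen after seeing the data. The cause of these changes was not tested.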
